A study of Mus musculus with 8 samples.

Results

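The genes Aass, Mlxipl, Bnc2, Exoc3l2 and Arhgap32 were followed as linear RNA and as circular RNA (circRNA) in mouse renal proximal tubules after cisplatin. They were chosen because circRNAs inside them had lower counts after cisplatin in earlier results from these same libraries, and every circRNA inside each gene was then taken, including those that were not lower. They make up 5 of 21874 gene rows, and the 11 back-splice position pairs that lie inside them are 11 of 2163. Tubules came from the renal cortex of male C57BL/6 mice at 24 h, 48 h and 72 h after 30 mg/kg intraperitoneal cisplatin, a platinum drug that injures proximal tubule cells, and at 0 h. Each time had 2 libraries, called a and b after their columns. The labels carry the same cisplatin text for the 0 h libraries and give no vehicle, genotype change or animal age. Duplicates are described as biological, with no statement that separate animals were used, and a p-value here weighs a difference against the spread between libraries alone.

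A circRNA forms when the end of an exon is spliced back to the start of the same or an earlier exon, which closes the RNA into a ring with no free ends. The read that crosses this back-splice junction tells the circle from the linear messenger RNA made by the same gene. Circles often persist longer than linear RNA because exonucleases need a free end, so the level of a circle and that of its host gene need not move together.

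The circRNA counts totalled between 13603 and 21024 back-splice reads per library, and the length-scaled and depth-scaled values of linear RNA (FPKM, fragments per kilobase of gene and sequenced depth) do not show it. Proximal tubule markers were present: all 10 on the list had a row, and their FPKM summed to 708 and 720 in the 72 h libraries, against 5560 and 6070 in the 0 h libraries. Summed markers of fibroblasts and stroma were 239.8 and 239.9 FPKM at 72 h against 59.8 and 56.0 FPKM at 0 h. Endothelial markers were 173 and 177 FPKM at 72 h against 87.9 and 84.7 FPKM at 0 h, and leukocyte markers were 61.7 and 59.3 FPKM at 72 h against 12.4 and 14.8 FPKM at 0 h. Distal nephron and collecting duct markers were 241 and 249 FPKM at 72 h against 526 and 505 FPKM at 0 h. By limma at 72 h, 10 of 10 proximal tubule markers tested were lower, 5 of 6 distal markers were lower and 1 higher, and 6 of 6 stromal, 8 of 9 endothelial and 4 of 4 leukocyte markers were higher. In the same contrast with 0 h, 32.4% of all tested gene rows were lower and 37.6% higher. No marker with a row was at 0 in all 8 libraries. In such bulk samples fewer cells of a type and less RNA per cell cannot be told apart. These marker levels moved with the times compared here, and their part in the results for the 5 genes was not tested.

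The 11 circles differed in size, in position and in whether they shared a back-splice site. Positions are those of the deposited table on the mouse build mm10. The Aass circle ran across 15.6 kb, chr6:23107140-23122737. The Mlxipl circle ran across 2.51 kb, chr5:135121506-135124017, and that of Exoc3l2 across 3.49 kb, chr7:19481246-19484734. Each was the single circle of its gene.

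Bnc2 held 3 circles. The shortest, of 1.97 kb at chr4:84291693-84293662, lay toward the 3′ end of the gene, 382 kb after its RefSeq start. The others, of 9.70 kb at chr4:84546205-84555904 and of 49.4 kb at chr4:84506528-84555904, shared their end position, which is the upstream side of this gene on the minus strand.

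Arhgap32 held 5 circles, all away from both ends of the gene. The 23.6 kb circle at chr9:32129570-32153124 and the 1.20 kb circle at chr9:32151922-32153124 shared an end. The 38.2 kb circle at chr9:32170090-32208265 and the 26.4 kb circle at chr9:32181842-32208265 shared another end. The 26.4 kb circle and the 8.22 kb circle at chr9:32181842-32190061 shared a start. Each of the 5 circles of this gene therefore shares a back-splice position with another, and they are not 5 separate regions. The 23.6 kb and 1.20 kb circles share no position with the rest. Exon numbers and the sequence across the junctions were not used here.

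**Figure D1:**
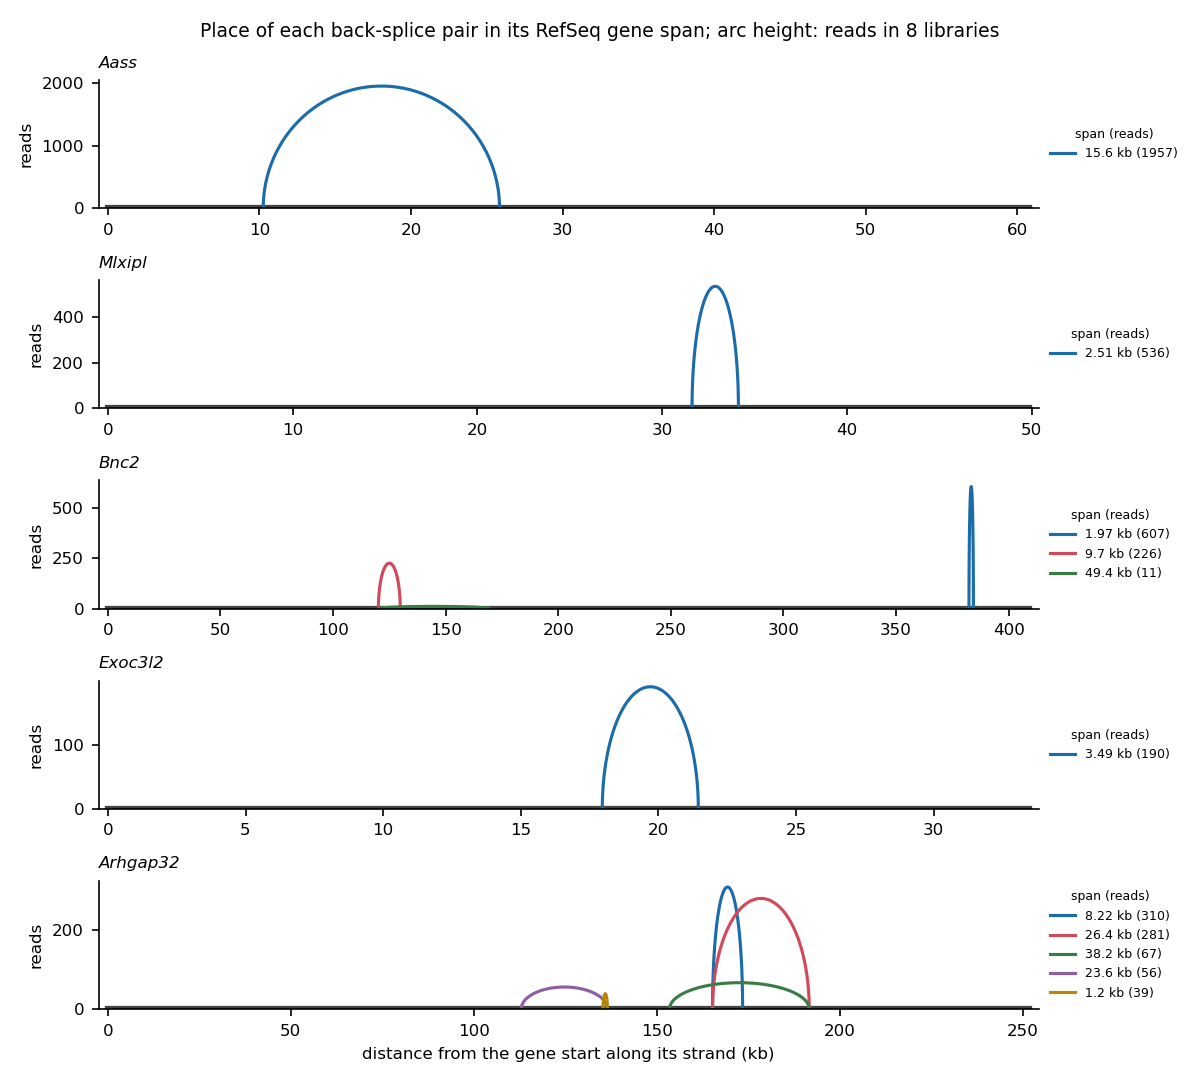
Positions of the 11 circRNAs within their 5 host genes, drawn as distance in kb from the RefSeq gene start along the direction of transcription; each arc joins the 2 back-splice positions of a circle, and its height and the legend give its reads summed over the 8 libraries. The 5 Arhgap32 arcs share end points, while Aass, Mlxipl and Exoc3l2 hold 1 arc each.

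Reads were unevenly spread over the circles. The Aass circle had 1957 reads over the 8 libraries, which placed it at rank 3 of 2163 by mean counts per 1000000 circRNA reads (CPM). The 1.97 kb Bnc2 circle was at rank 30 with 607 reads, the Mlxipl circle at rank 35 with 536 reads, and the Exoc3l2 circle at rank 146 with 190 reads. Within Arhgap32 the 8.22 kb and 26.4 kb circles had 310 and 281 reads, whereas the other 3 had 67, 56 and 39. The 49.4 kb Bnc2 circle had 11 reads and sat at rank 1305. All 11 circles had reads in 4 or more of the 8 libraries, the filter for testing, as did 1574 of the 2163 circRNAs.

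Together the 11 circles held 4.98% ± 0.0377 of all circRNA reads at 0 h. The share was 2.54% ± 0.0970 at 24 h, 2.88% ± 0.247 at 48 h and 2.27% ± 0.0204 at 72 h (SD, n = 2 each). Counts were scaled to CPM with the trimmed mean of M values (TMM) of edgeR and tested with its quasi-likelihood test, Benjamini-Hochberg adjusted over all 1574 circRNAs at a threshold of 0.05. Since the genes were chosen from these counts, the calls are a description and no p is given. At 24 h 4 of the 11 circles were called lower than at 0 h, where 0.699% of all tested circRNAs were. At 48 h the count was 3 of 11, with 0.445% of all, and at 72 h it was 5 of 11, with 0.953% of all. Higher calls were 0 of 11, and all 11 had a negative log2 change at each of these times; over all circRNAs 1.08%, 0.826% and 0.254% were called higher at 24 h, 48 h and 72 h, and 0.0635% in each of the later steps. Over all 1574 circRNAs the 72 h contrast split into 4 higher and 15 lower, and into 14 higher and 11 lower when counts were scaled by library totals without TMM. Both libraries lay below both 0 h libraries for 9 of 11 circles at 24 h, where 19.7% of all circRNAs did so. For 48 h this held for 7 of 11 circles and 18.2% of all, and for 72 h for 10 of 11 circles and 19.4% of all. The choice of genes rested on these counts, so nothing is read from the members' shares.

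**Figure D2:**
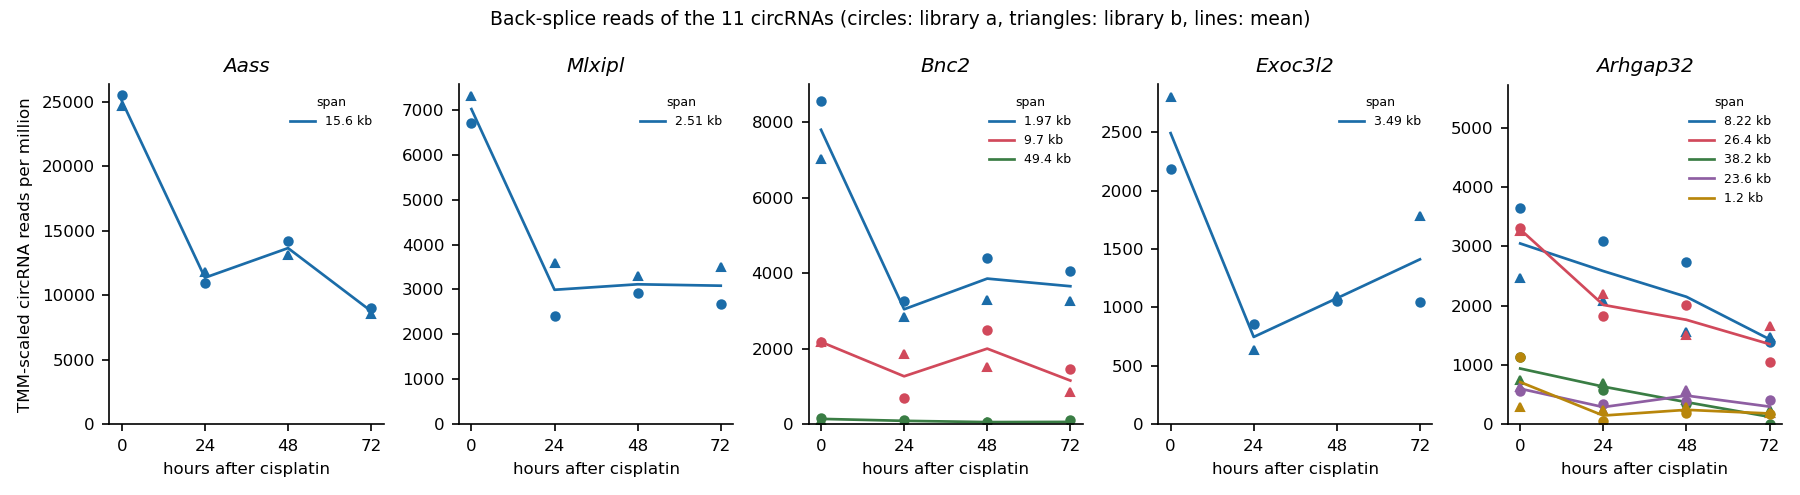
Back-splice reads of each circle (TMM-scaled CPM) against hours after cisplatin, in a panel for each gene; circles and triangles are libraries a and b, lines join the means of the 2 libraries, and colours mark the circles by span. The Aass, Mlxipl and 1.97 kb Bnc2 circles stood below their 0 h libraries at all 3 later times, while the Exoc3l2 mean was lowest at 24 h.

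Aass encodes the mitochondrial enzyme that carries out the first 2 steps of lysine breakdown through saccharopine, and the kidney cortex is a site of this pathway. Its linear row on the minus strand of chromosome 6 was the most abundant of the 5 genes, at rank 454 of 10757 tested rows by mean FPKM. The values were 238 and 245 FPKM at 0 h, 82.3 and 76.8 FPKM at 24 h, 57.1 and 60.5 FPKM at 48 h, and 54.3 and 48.2 FPKM at 72 h. The libraries of each later time lay far below those of 0 h, and those of 48 h and 72 h lay below those of 24 h. Linear Aass RNA fell by 1.59 on the log2(FPKM + 1) scale at 24 h relative to 0 h (SE 0.0757, adjusted p = 5.6e-07, limma with Benjamini-Hochberg adjustment over 10757 rows). The change against 0 h was -2.02 at 48 h (adjusted p = 6.8e-08, limma) and -2.22 at 72 h (adjusted p = 2.4e-08, limma). Between 48 h and 24 h it fell by 0.43 (adjusted p = 0.00385, limma), a call lost with quantile normalisation (-0.21, adjusted p = 0.0620, limma). Between 72 h and 48 h the change of -0.20 did not pass (adjusted p = 0.0580, limma), though it passed without either 24 h library or without the 72 h library a (adjusted p between 0.0398 and 0.0498, limma).

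The Aass circle had 315 and 431 reads at 0 h, 191 and 204 reads at 24 h, 296 and 226 reads at 48 h, and 155 and 139 reads at 72 h. On the TMM scale its mean was 25068 ± 596 CPM at 0 h, 11355 ± 607 at 24 h, 13648 ± 795 at 48 h and 8760 ± 321 at 72 h (SD, n = 2 each). The 72 h libraries were the lowest and no later library reached either 0 h library. The circle's log2 change against 0 h was -1.14 at 24 h, -0.87 at 48 h and -1.52 at 72 h, and it was called lower each time. Its mean at 48 h stood above that at 24 h, but this difference was not called (log2 change 0.27). The linear RNA was lower at 48 h than at 24 h, and the difference between circle and linear RNA was not tested. Between 72 h and 48 h the circle was called lower by 0.64 on the log2 scale, as were 0.953% of circRNAs in that contrast. This call was lost without any 1 of the 48 h and 72 h libraries, with values between -0.66 and -0.57.

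The deposited Aass row covers chr6:23021068-23133126, which reaches 51105 bases past the RefSeq gene on its downstream side and overlaps Ptprz1. The Ptprz1 row itself stayed at or below 0.0123 FPKM in all 8 libraries. The window of 250 bases before to 50 after the Aass start is shown because the linear RNA of this gene moved most among the 5, from RefSeq on build GRCm38.p6, chr6:23132937-23133236, minus strand, written in the direction of transcription with motif matches in capitals.
Aass: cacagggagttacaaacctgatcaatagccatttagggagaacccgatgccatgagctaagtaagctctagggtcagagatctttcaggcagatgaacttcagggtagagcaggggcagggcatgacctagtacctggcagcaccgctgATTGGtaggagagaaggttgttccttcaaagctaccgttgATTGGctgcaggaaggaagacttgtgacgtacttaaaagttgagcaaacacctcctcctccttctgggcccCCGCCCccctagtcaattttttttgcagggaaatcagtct
A search of both strands found CCAAT at 2 places and GGGCGG at 1, all in reverse complement (ATTGG and CCGCCC). Of 32851 RefSeq promoter windows of the same length, 37.4% held CCAAT and 35.7% held GGGCGG, so these matches are common.

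Other genes of lysine degradation moved with Aass. The list held 14 genes, of which 12 had a row and all 12 were tested. Leaving Aass out, 10 of 11 passed the limma test as lower at 24 h, 11 of 11 at 48 h and 11 of 11 at 72 h, as did 40.0%, 42.1% and 32.4% of all tested rows at these times. Their median log2 change was -0.72, -1.38 and -1.75 at 24 h, 48 h and 72 h, against medians of -0.12, -0.13 and 0.07 over all tested rows. Pipox, the peroxisomal oxidase of the pipecolate branch, averaged 30.3 ± 1.84 FPKM at 72 h and 140 ± 3.20 FPKM at 0 h (SD, n = 2 each), a log2 change of -2.18. Echs1, a mitochondrial enoyl-CoA hydratase, fell by 1.80 at 72 h (adjusted p = 3.98e-08, limma). Ogdh, the dehydrogenase subunit of the 2-oxoglutarate dehydrogenase complex, fell by 1.47 (adjusted p = 6.97e-08, limma). All 10 proximal tubule markers were also lower at each time, with a median log2 change of -2.99 at 72 h, and their part in the Aass values was not tested.

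Mlxipl encodes ChREBP, a transcription factor that binds carbohydrate response elements with its partner Mlx when glucose metabolites build up. Its linear row lies on the plus strand, chr5:135089903-135139876. It had 13.8 and 14.2 FPKM at 0 h, 12.9 and 12.9 FPKM at 24 h, 8.32 and 9.01 FPKM at 48 h, and 7.92 and 5.72 FPKM at 72 h. The 24 h libraries lay just under those of 0 h, and the step came at 48 h. At 24 h the linear change against 0 h was -0.11 on the log2 scale (SE 0.124, adjusted p = 0.445, limma), close to the median of all rows. Linear Mlxipl RNA was lower at the 2 following times, with changes against 0 h of -0.63 at 48 h (adjusted p = 0.00145, limma) and -0.95 at 72 h (adjusted p = 0.000114, limma). Between 48 h and 24 h it fell by 0.52 (adjusted p = 0.0146, limma), a call lost without the 24 h library a (adjusted p = 0.0599, limma) or without the 48 h library a (adjusted p = 0.0860, limma). Between 72 h and 48 h the change was -0.32 (adjusted p = 0.0609, limma), and it passed without the 72 h library a (adjusted p = 0.0073, limma).

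The Mlxipl circle had 83 and 128 reads at 0 h, 42 and 62 reads at 24 h, 61 and 57 reads at 48 h, and 46 and 57 reads at 72 h. Its TMM-scaled mean was 7018 ± 427 CPM at 0 h, 2992 ± 833 at 24 h, 3114 ± 263 at 48 h and 3083 ± 588 at 72 h (SD, n = 2 each). The 3 later times overlapped each other and all lay below 0 h. The log2 change against 0 h was -1.23, -1.18 and -1.19 at 24 h, 48 h and 72 h, with a lower call each time. At 24 h the circle was thus called lower, on the counts that chose the gene, while the linear RNA had not passed its test. The difference between circle and linear RNA was not tested. The call at 48 h was lost without the 48 h library a (-1.08), and that at 72 h without the 72 h library a (-1.01).

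RefSeq gives Mlxipl another window, chr5:135106641-135106940, which held none of the motifs searched. Its start lies 16988 bases from that of the deposited row, and which start was used in these libraries was not tested. The window at the start of the deposited Mlxipl row is shown, chosen for an E-box of the kind ChREBP and many other factors recognise, from RefSeq on build GRCm38.p6, chr5:135089640-135089939, plus strand, with motif matches in capitals.
Mlxipl: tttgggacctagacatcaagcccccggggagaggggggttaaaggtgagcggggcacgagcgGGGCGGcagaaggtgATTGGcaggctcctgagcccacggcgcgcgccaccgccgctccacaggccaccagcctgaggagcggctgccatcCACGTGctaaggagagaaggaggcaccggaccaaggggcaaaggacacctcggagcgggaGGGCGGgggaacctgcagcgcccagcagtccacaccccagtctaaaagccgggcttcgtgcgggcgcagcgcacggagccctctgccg
It held CACGTG once, CCAAT once in reverse complement (ATTGG) and GGGCGG at 2 places, on a search of both strands. CACGTG was present in 7.15% of the 32851 windows. A match describes the letters and is not evidence of binding.

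The ChREBP list of partners and targets had 25 genes, 23 with a row and 20 tested. Without Mlxipl, 13 of 19 were lower and 2 higher at 24 h, 13 lower and 3 higher at 48 h, and 12 lower and 5 higher at 72 h, with median log2 changes of -0.65, -0.90 and -0.58 against -0.12, -0.13 and 0.07 over all rows. Of all 10757 rows 40.0%, 42.1% and 32.4% were lower and 25.8%, 28.5% and 37.6% higher at these times. All 10 proximal tubule markers were lower as well, and their part in the values of this list was not tested. G6pc, which releases free glucose, averaged 10.4 ± 0.279 FPKM at 72 h and 230 ± 5.06 FPKM at 0 h (SD, n = 2 each), a log2 change of -4.34. Khk, the first enzyme of fructose use, changed by -2.54 at 72 h, Slc2a2, a glucose transporter, by -2.28, and Gpd1, a cytosolic glycerol-3-phosphate dehydrogenase, by -1.67. The 5 genes that were higher at 72 h are named here after their values were seen. Klf10, a zinc finger factor, changed by 2.02, Arrdc4, an arrestin-domain protein, by 1.57, Txnip, a thioredoxin-binding protein, by 0.86, Mlxip, the paralog of Mlxipl, by 0.53, and Fasn, fatty acid synthase, by 0.36.

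Bnc2 encodes basonuclin 2, a zinc finger protein of the nucleus that is known in mesenchymal and epithelial tissues. Its linear row lies on the minus strand, chr4:84266810-84675388. It had 13.4 and 13.1 FPKM at 0 h, 9.87 and 7.38 FPKM at 24 h, 8.02 and 7.55 FPKM at 48 h, and 7.40 and 6.29 FPKM at 72 h. All 6 later libraries were below both 0 h libraries, and the later times lay close to each other, with overlap between 24 h and 48 h. Linear Bnc2 RNA fell at each time, with changes against 0 h of -0.58 at 24 h (SE 0.127, adjusted p = 0.00327, limma), -0.70 at 48 h (adjusted p = 0.000964, limma) and -0.86 at 72 h (adjusted p = 0.000255, limma). Neither later step passed: the change was -0.12 at 48 h against 24 h (adjusted p = 0.526, limma) and -0.17 at 72 h against 48 h (adjusted p = 0.309, limma).

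The 1.97 kb Bnc2 circle had 106 and 123 reads at 0 h, 57 and 49 reads at 24 h, 92 and 57 reads at 48 h, and 70 and 53 reads at 72 h. Its TMM-scaled mean was 7805 ± 1092 CPM at 0 h, 3045 ± 304 at 24 h, 3858 ± 789 at 48 h and 3656 ± 569 at 72 h (SD, n = 2 each). The later libraries lay below those of 0 h and overlapped each other at 48 h and 72 h. The log2 changes of -1.35, -0.998 and -1.08 were each called lower. The call at 48 h was lost without the 0 h library a or the 48 h library b, each at -0.86, and the call at 72 h without the 0 h library a (-0.93) or the 72 h library b (-0.88).

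The 9.70 kb Bnc2 circle had 27 and 38 reads at 0 h, 12 and 32 reads at 24 h, 52 and 26 reads at 48 h, and 25 and 14 reads at 72 h. On the TMM scale the 48 h libraries overlapped those of 0 h, and no contrast was called, with log2 changes of -0.78, -0.11 and -0.90. The 49.4 kb circle had 0 to 2 reads in every library, too few for a fold change. Reads of the 1.97 kb circle were between 59.8% and 80.3% of the gene's circRNA reads across the 8 libraries, and the 9.70 kb circle held between 16.9% and 39.0%. The lowest share of the 1.97 kb circle was in the 24 h library b and the highest in the 24 h library a, so the spread within that time covered the range of the others.

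Bnc2 and the fibroblast matrix genes it was listed with changed in opposite directions at 72 h. Of 14 genes on the list of basonuclins and fibroblast matrix genes, 13 had a row and 10 were tested. Without Bnc2, 4 of 9 were lower and 3 higher at 24 h, 1 lower and 7 higher at 48 h, and 8 of 9 higher at 72 h, with a median log2 change of 1.78 at 72 h. The shares of all tested rows were 40.0%, 42.1% and 32.4% lower and 25.8%, 28.5% and 37.6% higher at these times. The median of all rows at 72 h was 0.07. Col3a1, a fibrillar collagen, averaged 73.6 ± 1.18 FPKM at 72 h and 11.8 ± 0.211 FPKM at 0 h (SD, n = 2 each), a log2 change of 2.55. Acta2, smooth muscle actin, rose by 2.36, Pdgfra, a receptor for platelet-derived growth factors, by 1.78, and Dcn, a matrix proteoglycan, by 1.69. Bnc1, the paralog, was listed at 0 in 6 libraries and reached 0.00822 FPKM at most. All 6 tested fibroblast and stroma markers are on this list too, so their counts are not independent of it.

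**Figure D3:**
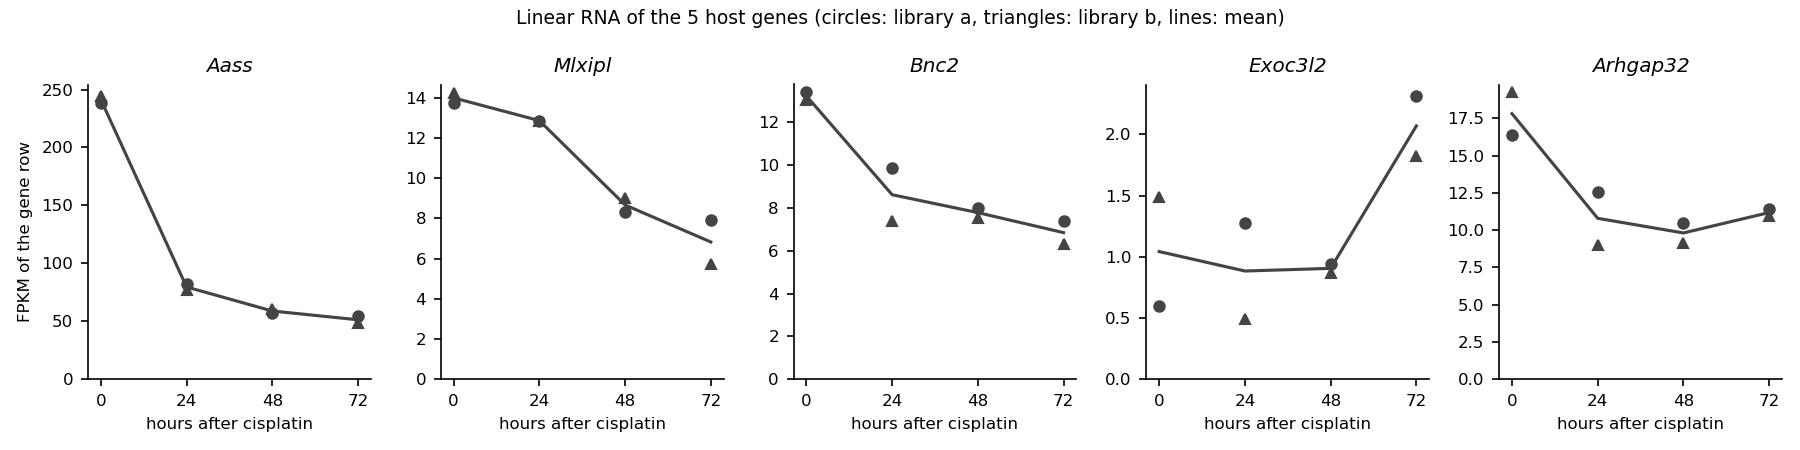
Linear RNA of the 5 host genes in FPKM against hours after cisplatin, in a panel for each gene with its own axis from 0; circles and triangles are libraries a and b and lines join the means. Aass, Mlxipl, Bnc2 and Arhgap32 stood below 0 h in all 6 later libraries, and Exoc3l2 was highest in the 72 h libraries.

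Exoc3l2 encodes a relative of the Exoc3 (Sec6) subunit of the exocyst, the complex that tethers secretory vesicles at the plasma membrane. Its linear row, chr7:19463146-19497183 on the plus strand, was the lowest of the 5 at rank 9758 of 10757. It had 0.598 and 1.49 FPKM at 0 h, 1.27 and 0.492 FPKM at 24 h, 0.941 and 0.869 FPKM at 48 h, and 2.32 and 1.82 FPKM at 72 h. The 24 h and 48 h libraries overlapped those of 0 h, while both 72 h libraries stood above all others. None of its contrasts passed: the log2 change against 0 h was -0.11 at 24 h (SE 0.255, adjusted p = 0.715, limma), -0.07 at 48 h (adjusted p = 0.829, limma) and 0.62 at 72 h (adjusted p = 0.0640, limma). The 72 h difference passed without the 0 h library b (0.94, adjusted p = 0.0109, limma) and also without either 24 h library (adjusted p = 0.0306 and 0.0303, limma). At 72 h against 48 h the change was 0.68 (adjusted p = 0.0617, limma), which passed without any 1 of the 0 h and 24 h libraries (adjusted p between 0.0249 and 0.0300, limma). A new-locus row with no symbol overlaps this gene and stayed at or below 0.151 FPKM.

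The Exoc3l2 circle had 27 and 49 reads at 0 h, 15 and 11 reads at 24 h, 22 and 19 reads at 48 h, and 18 and 29 reads at 72 h. Its TMM-scaled mean was 2493 ± 436 CPM at 0 h, 747 ± 157 at 24 h, 1078 ± 31.1 at 48 h and 1412 ± 521 at 72 h (SD, n = 2 each). The 24 h libraries were the lowest, and the means at 48 h and 72 h were higher in turn but stayed below both 0 h libraries. Neither of these later steps was called, and the 72 h libraries overlapped those of 48 h. The log2 change was -1.74, -1.22 and -0.84 at 24 h, 48 h and 72 h, with a lower call at 24 h alone. That call was lost without the 0 h library b (-1.43) or the 24 h library b (-1.48), and the circle was also called lower at 48 h without either 24 h library (-1.21 and -1.20). At 72 h the circle thus had fewer scaled reads than at 0 h in a group where the linear values were the highest of the series.

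The promoter window of Exoc3l2 is shown for contrast with that of Aass, as the gene whose linear RNA was not lower, from RefSeq on build GRCm38.p6, chr7:19463037-19463336, plus strand, with motif matches in capitals.
Exoc3l2: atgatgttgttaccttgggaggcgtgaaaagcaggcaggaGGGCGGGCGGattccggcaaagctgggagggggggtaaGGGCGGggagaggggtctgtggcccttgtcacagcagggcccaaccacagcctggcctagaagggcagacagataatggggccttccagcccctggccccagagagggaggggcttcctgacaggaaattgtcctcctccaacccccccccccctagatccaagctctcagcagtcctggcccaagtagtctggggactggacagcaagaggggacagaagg
It held GGGCGG at 3 places, the first 2 overlapping, and neither CCAAT nor CACGTG on either strand. TATAAA, present in 13.6% of the 32851 windows, had no match in any of the 3 windows printed, nor had the HNF1 palindrome with a free middle base (0.00913% of windows) or CAAAGTCCA (0.475%). The absence of a match says only that these letters are not in the window.

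The exocyst and Sec6-related list had 15 genes, 12 with a row and all 12 tested. Without Exoc3l2, 5 of 11 were lower and 2 higher at 24 h, 3 lower and 3 higher at 48 h, and 1 lower and 4 higher at 72 h, with median log2 changes of -0.26, -0.17 and 0.14 near those of all rows. Of all tested rows 40.0%, 42.1% and 32.4% were lower and 25.8%, 28.5% and 37.6% higher at these times. At 72 h Ralb, a small GTPase that binds the exocyst, rose by 0.97, the subunit Exoc5 by 0.71 and the Sec6 relative Exoc3l4 by 0.60, while the subunit Exoc6 fell by 0.84. Exoc6 was the single lower gene, with 12.2 ± 1.05 FPKM at 72 h and 22.6 ± 1.20 FPKM at 0 h (SD, n = 2 each). Endothelial, stromal and leukocyte markers, higher at 72 h with median log2 changes of 0.60, 1.77 and 2.05, moved in the direction of the 72 h Exoc3l2 values, and their part in these was not tested.

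Arhgap32 encodes a GTPase-activating protein, studied mostly in neurons, that speeds GTP hydrolysis by Cdc42 and Rac1. Its linear row on the plus strand, chr9:32031915-32268446, begins 15290 bases inside the RefSeq gene, and a new-locus row that overlaps it stayed at or below 0.0751 FPKM. It had 16.4 and 19.3 FPKM at 0 h, 12.6 and 8.99 FPKM at 24 h, 10.5 and 9.13 FPKM at 48 h, and 11.4 and 10.9 FPKM at 72 h. All later libraries were below those of 0 h, and the 24 h libraries spanned those of 48 h and 72 h. Linear Arhgap32 RNA fell at each time, with changes against 0 h of -0.69 at 24 h (SE 0.146, adjusted p = 0.00291, limma), -0.80 at 48 h (adjusted p = 0.00109, limma) and -0.62 at 72 h (adjusted p = 0.00444, limma). The steps between later times were -0.11 (adjusted p = 0.613, limma) at 48 h against 24 h and 0.17 (adjusted p = 0.351, limma) at 72 h against 48 h.

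The 26.4 kb Arhgap32 circle had 41 and 57 reads at 0 h, 32 and 38 reads at 24 h, 42 and 26 reads at 48 h, and 18 and 27 reads at 72 h. Its TMM-scaled mean was 3289 ± 41.2 CPM at 0 h, 2013 ± 258 at 24 h, 1761 ± 361 at 48 h and 1351 ± 434 at 72 h (SD, n = 2 each). Each later mean was below the one before, with overlap between neighbouring later times. The log2 change was -0.71, -0.89 and -1.28, called lower at 72 h alone.

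The 8.22 kb Arhgap32 circle, which shares its start with the 26.4 kb one, had 45 and 43 reads at 0 h, 54 and 36 reads at 24 h, 57 and 27 reads at 48 h, and 24 and 24 reads at 72 h. Scaled for depth, its libraries overlapped 0 h at 24 h and 48 h and lay below it at 72 h. The log2 change was -0.21, -0.46 and -1.06 and no contrast was called. At 72 h the 38.2 kb circle was the called member nearest to the threshold, though not at its edge, and the 8.22 kb circle lay just outside it. The 8.22 kb circle was called lower at 72 h without the 24 h library b (-1.01).

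The 38.2 kb Arhgap32 circle had 14 and 13 reads at 0 h, 10 and 12 reads at 24 h, 7 and 7 reads at 48 h, and 0 and 4 reads at 72 h. The 0 of 16318 reads in the 72 h library a allows up to 184 CPM at a limit of 3 counts, which covers counting error only. Its log2 changes were -0.54 at 24 h and -1.30 at 48 h, and it was called lower at 72 h. Both Arhgap32 calls at 72 h were lost without the 0 h library a, the 0 h library b or the 72 h library a. The log2 change of the 26.4 kb circle was then -1.26, -1.22 and -0.98, and the 38.2 kb circle had 4 reads in the 1 library left when the 72 h library a was out. The 23.6 kb circle had between 3 and 11 reads per library and the 1.20 kb circle between 1 and 14, and neither was called at any time.

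The shares of the Arhgap32 circles in the gene's circRNA reads varied between libraries. The 38.2 kb and 1.20 kb circles had at most 14 reads in a library, so counting error weighs heavily on their shares. The 8.22 kb circle held between 33.3% and 52.4% over the 8 libraries and the 26.4 kb circle between 31.1% and 44.3%. The share of the 38.2 kb circle was 0% and 6.56% in the 72 h libraries, against 11.6% and 10.1% in the 0 h libraries, and that of the 1.20 kb circle ran from 0.971% to 11.6% over the 8 libraries. Totals over the 5 circles were 121 and 129 reads at 0 h, 103 and 94 reads at 24 h, 118 and 75 reads at 48 h, and 52 and 61 reads at 72 h. The 72 h libraries held the fewest reads of this gene.

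**Figure D4:**
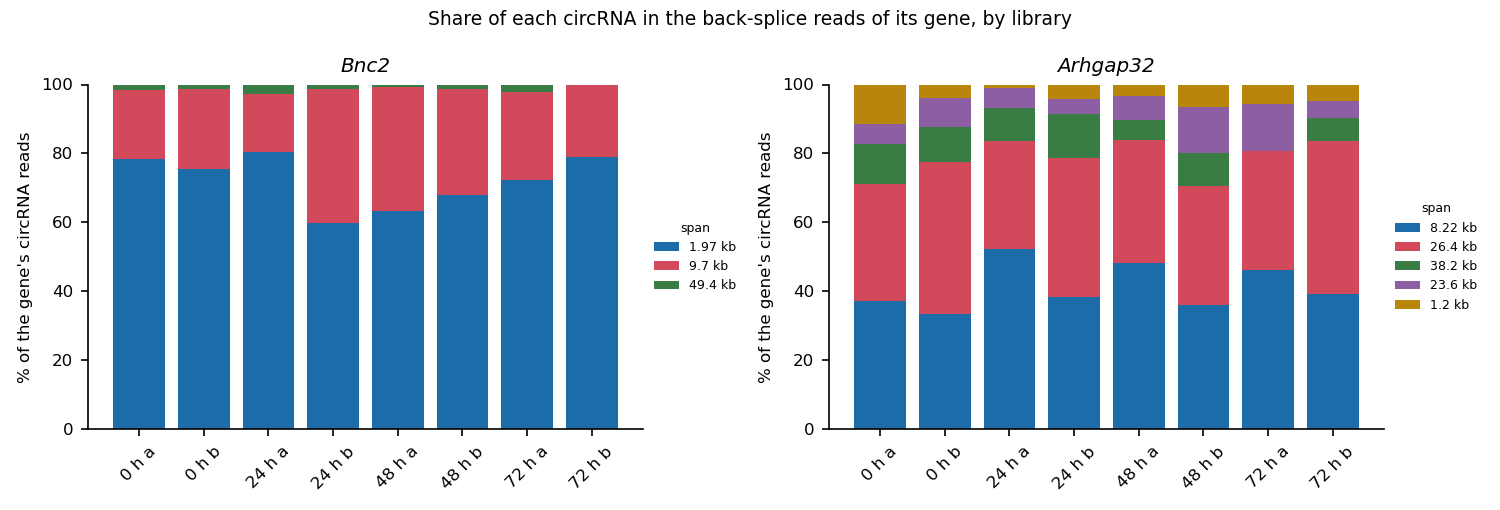
Share of each gene's circRNA reads, in percent, held by each circle of Bnc2 and of Arhgap32 in the 8 libraries; stacked colours mark circles by span. The 1.97 kb circle led in Bnc2 in every library, while the 8.22 kb and 26.4 kb circles together held most Arhgap32 reads.

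Among GTPase-activating proteins of the Arhgap family, 31 were listed, 30 had a row and 25 were tested. Without Arhgap32, 10 of 24 were lower and 3 higher at 24 h, 8 lower and 6 higher at 48 h, and 7 lower and 11 higher at 72 h, with medians of -0.12, -0.09 and 0.17. Of all tested rows 40.0%, 42.1% and 32.4% were lower and 25.8%, 28.5% and 37.6% higher, with medians of -0.12, -0.13 and 0.07. At 72 h Arhgap39 changed by -1.15, Arhgap24 by -0.99 and Arhgap18 by -0.89, and Arhgap31, which acts on Cdc42 and Rac1, rose by 1.06. Of the 12 listed targets and partners of Arhgap32, 10 had a row and 8 were tested, with 5 lower and 1 higher at 24 h, 4 lower and 3 higher at 48 h, and 1 lower and 4 higher at 72 h. Their medians were -0.24, -0.17 and 0.20, to be read beside the shares and medians of all rows given above. At 72 h the GTPases Cdc42 and Rac1 rose by 0.74 and 0.64 and the kinase Fyn by 1.01, while Ctnnb1 (beta-catenin) fell by 0.27.

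Across the 5 host genes, linear RNA passed as lower for 3 of 5 at 24 h, 4 of 5 at 48 h and 4 of 5 at 72 h. Over all 10757 tested rows the shares lower were 40.0%, 42.1% and 32.4% at these times. Exoc3l2 at 72 h was the single member contrast with 0 h that reached an unadjusted p under 0.05 in the higher direction. At 48 h against 24 h 2 of 5 were lower, with 17.2% of all rows, and at 72 h against 48 h 0 of 5 passed in limma with Benjamini-Hochberg adjustment, with 11.3% of all rows lower. The shares of rows that passed as higher were 25.8%, 28.5% and 37.6% at 24 h, 48 h and 72 h against 0 h, then 11.2% at 48 h against 24 h and 37.2% at 72 h against 48 h. Without adjustment 2 of 5 were lower and 1 of 5 higher at a p under 0.05 in that last contrast, and 3 of 5 (Aass, Mlxipl and Bnc2) were called lower after the libraries were set to the same median or quantile normalised. Over all rows that contrast split into 3999 higher and 1212 lower as deposited, 2224 higher and 2580 lower with the same median, and 2426 higher and 2465 lower with quantile normalisation. Both libraries lay below both 0 h libraries for 4 of 5 genes at each time, against 48.3%, 49.9% and 40.2% of all rows. Lower linear RNA was thus common over all rows, and the count among these 5 genes is not read as particular to them. By size of change, Aass stood at ranks 181, 218 and 225 from the lowest of 10757 rows at 24 h, 48 h and 72 h.

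**Figure D5:**
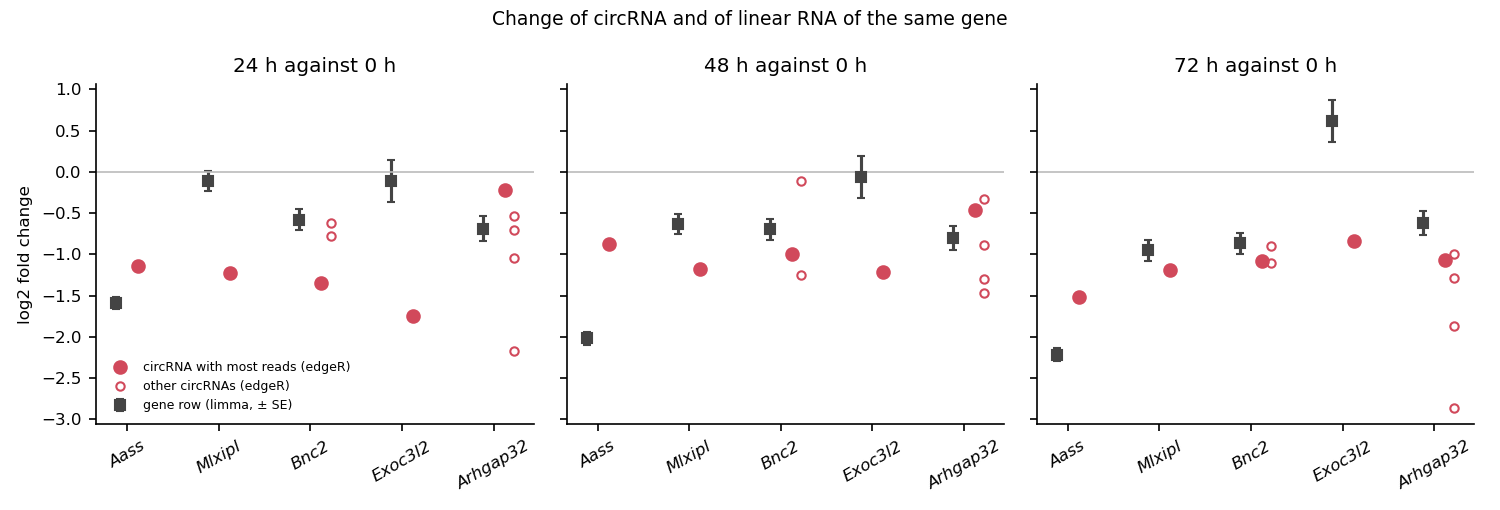
Log2 fold change of each circle (TMM-scaled counts, edgeR) beside that of its host gene's linear RNA (log2(FPKM + 1), limma) at 24 h, 48 h and 72 h against 0 h. The Exoc3l2 circle lay below 0 while its linear RNA was near or above 0, and the Aass circle changed less than its linear RNA; the open symbols include circles with few reads, such as the 49.4 kb Bnc2 circle with 11.

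Set against the linear RNA of the same gene, the circles did not move alike. The log2 ratio of circRNA CPM to FPKM (1 added to each) was taken for 1212 pairs of a circle and its host, with no test because it holds the counts that chose the genes. For Aass the ratio was higher than at 0 h by 0.45, 1.14 and 0.70 at 24 h, 48 h and 72 h, with both libraries above 0 h each time, as in 24.9%, 27.5% and 22.3% of all pairs. For Exoc3l2 it changed by -1.63, -1.13 and -1.48, with both libraries below 0 h each time, as in 16.6%, 15.4% and 21.0% of all pairs. At 0 h the Exoc3l2 ratio was 10.28, the highest of the 1212, resting on a linear row near 1 FPKM. Such a row can also hold reads from inside the circle that do not cross its junction, and their part was not tested. For Mlxipl the change was -1.14, -0.54 and -0.25, with overlap at 72 h, and for the 1.97 kb Bnc2 circle it was -0.78, -0.33 and -0.23. The 9.70 kb Bnc2 circle changed by -0.37, 0.53 and -0.10, with both libraries above 0 h at 48 h alone. In Arhgap32 the 8.22 kb circle changed by 0.45, 0.27 and -0.44, with overlap each time. The 26.4 kb circle changed by -0.03, -0.12 and -0.70, with both libraries below 0 h at 72 h alone. The circles with the fewest reads are left out. The medians over all pairs were 0.14, 0.23 and 0.07.

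The rows whose linear pattern was most like that of each gene were found by Pearson's r of log2(FPKM + 1) over the 8 libraries, among 10326 rows, as a description with no p, since the libraries share their 4 times. For Aass they were Gphn (r = 0.998), Gk (0.998) and Slc6a8 (0.997). For Mlxipl they were Hyi (0.983), Hspe1 (0.973) and Hba-x (0.973), and for Bnc2 Mrps17 (0.983), Odc1 (0.983) and Atp5s (0.981). For Exoc3l2 the values were lower, with Msl2 (0.957), Rpp14 (0.955) and Ate1 (0.953), and for Arhgap32 they were Glyr1 (0.995), Etfbkmt (0.990) and Psmg2 (0.983). Among circRNAs, the closest to the Aass circle was a circle of Them7 (r = 0.937), to that of Mlxipl one of Setbp1 (0.970), to the 1.97 kb circle of Bnc2 one of Arhgef28 (0.919) and to that of Exoc3l2 one of Eefsec (0.905). For the 8.22 kb Arhgap32 circle the closest was one of Pced1b (0.910), which had 0 or 1 reads in each library.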

How the data were processed

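Linear and circular RNA were measured in the same 8 libraries, 2 at each of 4 times. Per the labels' protocols, total RNA was depleted of ribosomal RNA (Ribo-Zero) before library preparation with a kit sold for small RNA. The tools were Bowtie 0.12.2, TopHat2 and Cufflinks on build mm10, per the submitters' processing notes. How circRNAs were called was not stated there. Linear values are FPKM as deposited by the authors, 1 value per gene row. Only junction reads tell a circle from linear RNA, so these values can include reads from inside circles. circRNA values are raw counts per back-splice pair as deposited by the authors. A further 8 columns of that table, named for normalised counts, were left unused. Column names end in a letter and sample titles in a number, hence columns were matched to times and not to single samples. Of the gene rows, 19742 matched a symbol by identifier.

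Gene rows that reached 1 FPKM in 2 or more libraries, 10757 in all, were tested with limma 3.58.1 (R 4.3.3, trend, robust) on log2(FPKM + 1) in 1 fit of the 8 libraries. This scale understates the change of low genes such as Exoc3l2. circRNAs above 0 in at least 4 libraries were tested with edgeR 4.0.16 (quasi-likelihood, TMM, robust). Tests were 2-sided with Benjamini-Hochberg adjustment over all features of a contrast at 0.05, and all contrasts with 0 h share its libraries. DESeq2 1.42.0, other scalings, filters and pseudocounts, leaving out each library and a block by column letter were alternatives. The procedures were tested on simulated data. A circle was a member when both positions lay inside the RefSeq gene span of the same assembly. Named genes outside the members are, by rule, up to 4 of each list with the smallest adjusted p at 72 h against 0 h, and the 3 rows or 1 circRNA most like each member. Outside this rule, Bnc1, Ptprz1 and the 5 genes of the ChREBP list that were higher at 72 h were named after their values were seen. Members, lists and rules were chosen with earlier results of these data known.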

Additional observations from a re-analysis of the deposited data

How the results depend on the processing

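The counts of host genes called lower at 24 h, 48 h and 72 h against 0 h, at 3, 4 and 4 of 5, were the same under all alternatives run. So were the signs of all called changes in linear RNA. The called circles also kept their signs, but the genes were chosen from these counts, so nothing is read from that. At 48 h against 24 h the count of 2 became 1 with quantile normalisation and ranged from 1 to 2 with a library left out. At 72 h against 48 h the count of 0 became 3 with quantile normalisation, 3 with the same median in every library, and ranged from 0 to 2 with a library left out. circRNA calls among the 11 ranged from 3 to 4 at 24 h, from 2 to 4 at 48 h and from 2 to 6 at 72 h with a library left out, and DESeq2 gave 4, 3 and 4 of 11; its adjusted p for the 38.2 kb Arhgap32 circle at 72 h was missing. Of 745 comparisons of a single gene or circle with its alternative, 708 kept their side of the threshold, 17 lost a call and 20 gained one. Some uncalled changes that kept their side changed sign. The 24 h change of linear Exoc3l2 RNA was -0.11 in the main fit and 0.20 without the 0 h library b. Setting the same median moved the median of all rows from -0.12, -0.13 and 0.07 to near 0 at 24 h, 48 h and 72 h, and 3 uncalled changes against 0 h were then positive: the 24 h changes of Mlxipl, 0.0085, and of Exoc3l2, 0.0076, and the 48 h change of Exoc3l2, 0.0728. Quantile normalisation gave 0.0400 for Mlxipl at 24 h.

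No steady pairing of the samples by the letters a and b was seen. Correlations of same-letter deviations between times ran from -0.24 to 0.39 for linear rows and from -0.033 to 0.037 for circRNAs. These values cannot settle whether libraries with the same letter belong together. With the letter as a replicate block, the counts of host genes lower were 3, 4, 4, 2 and 0 of 5 in the order 24 h, 48 h and 72 h against 0 h, 48 h against 24 h and 72 h against 48 h, and the circle counts were 4, 3 and 5 of 11.

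Over all circRNAs, calls at 24 h were 28, with 18 by DESeq2 and 15 to 30 with a library left out; at 48 h 20, with 13 by DESeq2 and 9 to 25; at 72 h 19, with 9 to 33. Linear calls at 48 h against 24 h were 3046, with 1830 to 2865 when a library was left out, and split into 1200 higher and 1846 lower as deposited against 1576 and 1562 with quantile normalisation. With 2 libraries per time, and 0 to 14 reads per library for circles such as the 1.20 kb and 38.2 kb ones of Arhgap32, small differences were not detectable at this depth.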
